A study of Homo sapiens with 8 samples.

Results

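The mRNAs of 10 core P-body proteins were followed in the RNA of P-bodies and of the cytosol from a pair of human leukaemia cell lines. The genes were named by symbol for the roles of their proteins in the P-body scaffold, in translational repression and in decapping. The rule used no measured value, although earlier results of these data were known when it was written. They are DDX6, LSM14A, LSM14B, EIF4ENIF1, PATL1, EDC3, EDC4, DCP1A, DCP1B and DCP2, which is 10 of the 60196 gene symbols used. All 10 were counted in both lines and passed the filter on low counts in every comparison.

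P-bodies are cytoplasmic granules without a membrane in which mRNAs that are not being translated gather together with repressors and the decapping machinery. The helicase DDX6 binds LSM14A and LSM14B, which are repressors of the RAP55 family, and EIF4ENIF1 (4E-T), which holds the cap-binding protein eIF4E. PATL1, EDC3 and EDC4 bring the decapping enzyme into action, and the enzyme consists of the catalytic subunit DCP2 with DCP1A or DCP1B as its activating partner. The proteins are concentrated in the granule, whereas where their own mRNAs lie is a separate question, which is the one addressed here.

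Total RNA was sequenced in 8 libraries, with 2 from the P-bodies and 2 from the cytosol of each line. HEL was derived from erythroleukaemia, and MOLM-13 from an acute myeloid leukaemia with monocytic features. The labels name no treatment and no change of genotype for any group, and the sources used here do not give the method of P-body isolation. Whether the 2 libraries of a group came from different cultures is not in the labels, so the p-values reflect the spread among these libraries alone, and that spread may be technical.

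HEL libraries held 13153551 to 18071473 counts and MOLM-13 libraries 5897625 to 11000536. The cell lines matched their markers. The summed level of 13 erythroid and megakaryocytic genes was 1222 to 2788 CPM (read counts scaled by the library's total) in HEL and 39.6 to 72.1 in MOLM-13, and that of 13 monocytic and granulocytic genes was 27.1 to 63.3 in HEL, where MPO, ELANE and PRTN3 were at 0 in all libraries, and 2261 to 4849 in MOLM-13. Markers of mitochondria moved with the fraction. All 13 mitochondrially encoded mRNAs were lower in P-body libraries of both lines by edgeR's quasi-likelihood test, and their sum was 3376 to 3559 CPM against 6912 to 7819 in HEL and 4640 to 4745 against 9251 to 10580 in MOLM-13. The sum of 6 RNAs listed as nuclear-retained was 1340 to 1426 CPM in P-body and 1141 to 1263 in cytosolic libraries of HEL, and 3850 to 3881 against 5928 to 6262 in MOLM-13. Whether each of the 6 is nuclear in these cells was not tested, so the sum is no measure of nuclear RNA. The members of this list went both ways, as 2 of the 6 were higher and 2 lower in P-bodies of HEL, and 2 and 3 in those of MOLM-13. In HEL, OIP5-AS1 was at 574 and 583 CPM in P-bodies and 357 and 321 in cytosol, and SNHG14 at 181 and 186 against 53 and 58. MALAT1 was at 566 and 631 against 797 and 709 and NEAT1 at 12.9 and 16.6 against 42.0 and 38.2. In MOLM-13, OIP5-AS1 was at 582 and 598 against 308 and 302 and SNHG14 at 386 and 405 against 268 and 263. There MALAT1 was at 2768 and 2768 against 5396 and 5092. The part of these RNAs in the results on the 10 genes was not tested.

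The 10 transcripts differ in base composition, which is shown here because AU-rich codon use is a property by which P-body mRNAs are known to differ from other mRNAs. Of the codons of the coding sequence, the share ending in A or T was 63.4% in LSM14A, 63.0% in DCP2, 33.7% in LSM14B and 32.2% in EDC4, against a median of 43.3% over 10279 genes. A window of 20 codons from the middle of each of these 4 coding sequences is printed 5′ to 3′ on the coding strand, from GENCODE release 29 on GRCh38, in lower case, with capitals for an A or T at the third position of a codon. The windows show a pair with many capitals and a pair with few. Of the first pair, DCP2 was higher in P-bodies of both lines and LSM14A was not. Of the second pair, in MOLM-13, EDC4 was higher and LSM14B lower, both from few counts. In HEL both had negative log2 changes, at -1.10 for EDC4, which passed the test, and -0.71 for LSM14B, which did not.
DCP2: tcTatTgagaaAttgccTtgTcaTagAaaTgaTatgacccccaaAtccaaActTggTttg
LSM14A: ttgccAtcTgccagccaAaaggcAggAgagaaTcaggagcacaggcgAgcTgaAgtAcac
LSM14B: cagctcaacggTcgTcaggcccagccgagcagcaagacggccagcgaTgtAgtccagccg
EDC4: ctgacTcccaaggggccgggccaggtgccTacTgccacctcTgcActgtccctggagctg
The DCP2 window is codons 201 to 220, in exon 6 of 11 at chr5:113001372-113001431 on the plus strand, and 13 of its 20 codons end in A or T. The LSM14A window is codons 223 to 242, in exons 5 and 6 of 10 within chr19:34215252-34215606 on the plus strand, with 10 such codons. The LSM14B window is codons 184 to 203, in exons 4 and 5 of 9 within chr20:62129907-62130232 on the plus strand, with 4. The EDC4 window is codons 692 to 711, in exons 17 and 18 of 29 within chr16:67880193-67880592 on the plus strand, with 5.

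The question of the main comparison was which of these mRNAs lay more in P-bodies than in the cytosol. In HEL, DCP1A and DCP2 were higher in P-bodies, LSM14A, PATL1, EDC3 and EDC4 were lower, and DDX6, LSM14B, EIF4ENIF1 and DCP1B did not pass the test. In MOLM-13, EIF4ENIF1, EDC4, DCP1A, DCP1B and DCP2 were higher, LSM14B was lower, and DDX6, LSM14A, PATL1 and EDC3 did not pass. DCP1A and DCP2 were the members higher in both lines, and EDC4 was lower in HEL and higher in MOLM-13. By edgeR's quasi-likelihood test at an adjusted p below 0.05, the HEL count was 2 higher and 4 lower of 10, where 27.5% of the 14772 genes tested were higher and 27.1% lower. The MOLM-13 count was 5 higher and 1 lower of 10, where 32.4% of 14089 genes were higher and 28.5% lower. Read against those shares, the counts of 10 genes were not far from the background. The median log2 change of the 10 was -0.34 in HEL, against -0.06 over all genes tested, and 0.28 in MOLM-13, against -0.04. The counts used here had no spike-in, so every change is measured against the other genes of the library. Scaling by library totals moved the median over all genes to -0.39 in HEL and to -0.47 in MOLM-13, and the calls over all genes to 2762 higher and 6751 lower in HEL, from 4061 and 4007, and to 2912 and 7128 in MOLM-13, from 4558 and 4017.

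**Figure D1:**
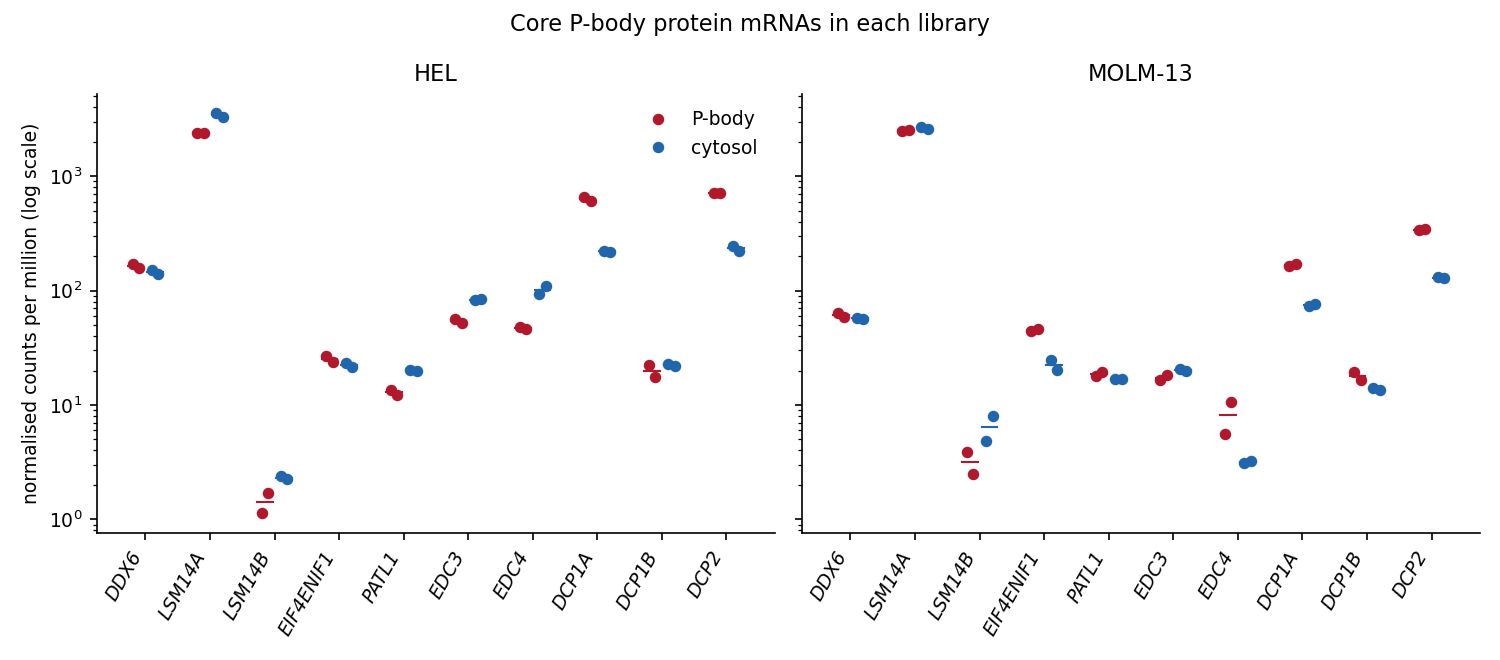
Level of each of the 10 mRNAs in CPM on a logarithmic axis in the 8 libraries, with a point for each library and a short line at the mean of the 2 libraries of a group. LSM14A stood at 2390 CPM or more in all libraries, and EDC4 ran from 93.1 CPM and more in HEL cytosol down to 3.08 in MOLM-13 cytosol.

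Among the scaffold and repressor genes, DDX6 encodes the DEAD-box helicase on which P-body assembly depends in human cells. Its level, in CPM scaled by trimmed mean of M values (TMM) within each line, was 172 and 157 in HEL P-body libraries and 150 and 140 in HEL cytosol. In MOLM-13 it was 64.0 and 58.8 in P-bodies and 58.0 and 56.6 in cytosol. In each line the lower P-body library lay just above the higher cytosolic one. The log2 change was 0.18 ± 0.080 (SE, n = 2 against 2) in HEL, with an adjusted p of 0.0647 by edgeR's quasi-likelihood test, and 0.10 ± 0.082 in MOLM-13, with an adjusted p of 0.294. The 95% intervals were 0.01 to 0.36 and -0.07 to 0.27, so a change of 2-fold in either direction lay outside both. Its sign was negative when libraries were scaled by their totals, at -0.14 in HEL and -0.33 in MOLM-13, where the MOLM-13 value passed as lower. The HEL value passed as higher with size factors by relative log expression (RLE), at 0.24, in the fit of all 8 libraries, at 0.26, and without HEL P-body replicate 2, at 0.33.

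LSM14A is a repressor that binds DDX6 and is needed for P-bodies to form. Its mRNA was the most abundant of the 10, at 2406 and 2390 CPM in HEL P-bodies and 3534 and 3309 in HEL cytosol. In MOLM-13 it was at 2506 and 2524 in P-bodies and 2702 and 2575 in cytosol. The groups did not overlap in either line. The log2 change was -0.51 ± 0.071 in HEL (adjusted p 2.17e-05, edgeR's quasi-likelihood test), or 1.43-fold lower in P-bodies, and -0.07 ± 0.039 in MOLM-13 (adjusted p 0.131, edgeR). The MOLM-13 value passed as lower with scaling by library totals, at -0.50, with a filter of 5 CPM, at -0.16, in the fit of all 8 libraries, at -0.18, and without MOLM-13 cytosol replicate 2, at -0.09. By mean CPM of library totals over the 4 libraries of a line, LSM14A ranked 3 of 60196 symbols in HEL and 17 in MOLM-13, and it made up 58.5% to 88.7% of the summed CPM of the 10 genes. The labels do not say whether the cells carried an introduced copy of LSM14A, and counts per symbol cannot tell its reads from those of the endogenous gene.

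LSM14B is the less studied paralogue of LSM14A, and exact 50-base stretches shared between the transcripts of the pair numbered 0. It was the lowest of the 10 in HEL, with counts of 18 and 26 in P-body and 35 and 39 in cytosolic libraries, or 1.13 and 1.69 CPM against 2.37 and 2.24. MOLM-13 P-bodies held 37 and 21 counts and MOLM-13 cytosol 33 and 67, or 3.91 and 2.48 CPM against 4.85 and 8.07. Cytosolic libraries were above P-body libraries in both lines. This gave a log2 change of -0.71 ± 0.339 in HEL (adjusted p 0.0906, edgeR's quasi-likelihood test) and -1.02 ± 0.288 in MOLM-13 (adjusted p 0.00359, edgeR), or 2.03-fold lower in P-bodies. Scaled by library totals, the HEL value was -1.03 and passed the test. The MOLM-13 call rested on few counts. It was lost without MOLM-13 cytosol replicate 2, where the log2 change was -0.57 with an adjusted p of 0.215, and with DESeq2, with an adjusted p of 0.116, and over 12 alternatives the adjusted p ran from 0.000252 to 0.215.

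EIF4ENIF1 encodes 4E-T, which carries eIF4E into P-bodies and keeps bound mRNAs silent. Its level was 26.6 and 23.8 CPM in HEL P-bodies and 23.5 and 21.3 in HEL cytosol, groups that almost touch. It was 44.1 and 46.3 in MOLM-13 P-bodies and 24.5 and 20.2 in MOLM-13 cytosol, which lie well apart. In log2 terms the change was 0.17 ± 0.125 in HEL (adjusted p 0.261, edgeR's quasi-likelihood test) and 1.02 ± 0.111 in MOLM-13 (adjusted p 1.77e-08, edgeR), or 2.03-fold higher. In HEL its sign was negative under scaling by library totals, at -0.15.

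Of the decapping activators, PATL1 links DDX6 to the LSM1-7 ring and to DCP2. Its level was 13.5 and 12.3 CPM in HEL P-bodies and 20.1 and 19.6 in HEL cytosol, against 17.7 and 19.6 in MOLM-13 P-bodies and 16.7 and 16.7 in MOLM-13 cytosol. Neither line's groups overlapped. PATL1 changed by -0.62 ± 0.135 on the log2 scale in HEL (adjusted p 0.00122, edgeR's quasi-likelihood test), or 1.54-fold lower in P-bodies. In MOLM-13 its log2 value was 0.15 ± 0.140 (adjusted p 0.35, edgeR), which was -0.28 under scaling by library totals.

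EDC3 binds DDX6 and DCP2 and self-associates. Its level was 56.5 and 52.5 CPM in HEL P-bodies and 81.9 and 83.8 in HEL cytosol, and in MOLM-13 it was 16.4 and 18.3 against 20.6 and 19.9. In each line both cytosolic libraries were above both P-body libraries. Fitted on the log2 scale, the change was -0.60 ± 0.089 in HEL (adjusted p 4.1e-05, edgeR's quasi-likelihood test), or 1.52-fold lower, and -0.22 ± 0.137 in MOLM-13 (adjusted p 0.163, edgeR). The 95% interval was -0.80 to -0.41 in HEL and -0.51 to 0.06 in MOLM-13. The MOLM-13 value passed as lower with scaling by library totals, at -0.66, in the fit of all 8 libraries, at -0.34, and with a filter of 5 CPM, at -0.31.

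EDC4, also called Ge-1 or Hedls, is the large scaffold that joins DCP1 to DCP2. Its level was 48.4 and 46.1 CPM in HEL P-bodies and 93.1 and 110 in HEL cytosol. It was 5.60 and 10.6 in MOLM-13 P-bodies and 3.08 and 3.25 in MOLM-13 cytosol, from 53, 90, 21 and 27 counts. HEL cytosol stood above HEL P-bodies and MOLM-13 P-bodies stood above MOLM-13 cytosol, in every library. EDC4 thus had a log2 change of -1.10 ± 0.099 in HEL (adjusted p 1.99e-07, edgeR's quasi-likelihood test), or 2.15-fold lower in P-bodies, and 1.33 ± 0.294 in MOLM-13 (adjusted p 0.000377, edgeR), or 2.52-fold higher. The 2 MOLM-13 P-body libraries differed from each other, and without replicate 2 the MOLM-13 log2 change was 0.84, with an adjusted p of 0.0236, which was the highest over 11 alternatives. The transcript shares 21.4% of its 50-base stretches with the noncoding gene AC040162.3, which overlaps it on the same strand over 1253 exonic bases. That symbol was not among those used, so whether the counter included the gene is not known. If it did, the EDC4 counts depend on how such reads were treated.

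The catalytic subunit DCP2 and its partner DCP1A were higher in P-bodies in both lines. DCP2, the Nudix hydrolase that removes the cap, was at 713 and 708 CPM in HEL P-bodies and 246 and 222 in HEL cytosol. In MOLM-13 it was at 337 and 346 in P-bodies and 131 and 128 in cytosol. Every P-body library was above every cytosolic library of its line by a wide margin. For DCP2 the log2 change was 1.60 ± 0.074 in HEL (adjusted p 1.64e-10, edgeR's quasi-likelihood test), or 3.04-fold higher, and 1.40 ± 0.053 in MOLM-13 (adjusted p 2.32e-17, edgeR), or 2.64-fold higher.

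DCP1A, which activates DCP2, was at 652 and 612 CPM in HEL P-bodies and 223 and 218 in HEL cytosol. In MOLM-13 it was at 163 and 172 in P-bodies and 73.1 and 76.0 in cytosol, again with every P-body library above every cytosolic one. For DCP1A the log2 change was 1.52 ± 0.070 in HEL (adjusted p 1.75e-10, edgeR's quasi-likelihood test), or 2.87-fold higher, and 1.16 ± 0.065 in MOLM-13 (adjusted p 5.44e-14, edgeR), or 2.24-fold higher. Both DCP1A and DCP2 were called higher in both lines under all 12 alternatives run for each.

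DCP1B, the paralogue of DCP1A, was at 22.2 and 17.4 CPM in HEL P-bodies and 22.7 and 21.9 in HEL cytosol. It was at 19.5 and 16.6 in MOLM-13 P-bodies and 14.0 and 13.5 in MOLM-13 cytosol. The groups overlapped in HEL and did not in MOLM-13. DCP1B had a log2 change of -0.17 ± 0.139 in HEL (adjusted p 0.322, edgeR's quasi-likelihood test) and 0.40 ± 0.150 in MOLM-13 (adjusted p 0.0232, edgeR), or 1.32-fold higher. The MOLM-13 call held in 6 of 12 alternatives, with adjusted p from 0.00639 to 0.862. Among those where it was lost were the fits without MOLM-13 P-body replicate 1 (0.158) and without MOLM-13 cytosol replicate 2 (0.0936), and scaling by library totals turned its sign, at -0.03. In HEL that scaling gave -0.50, which passed as lower. The transcripts of DCP1A and DCP1B shared 0 exact 50-base stretches.

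**Figure D2:**
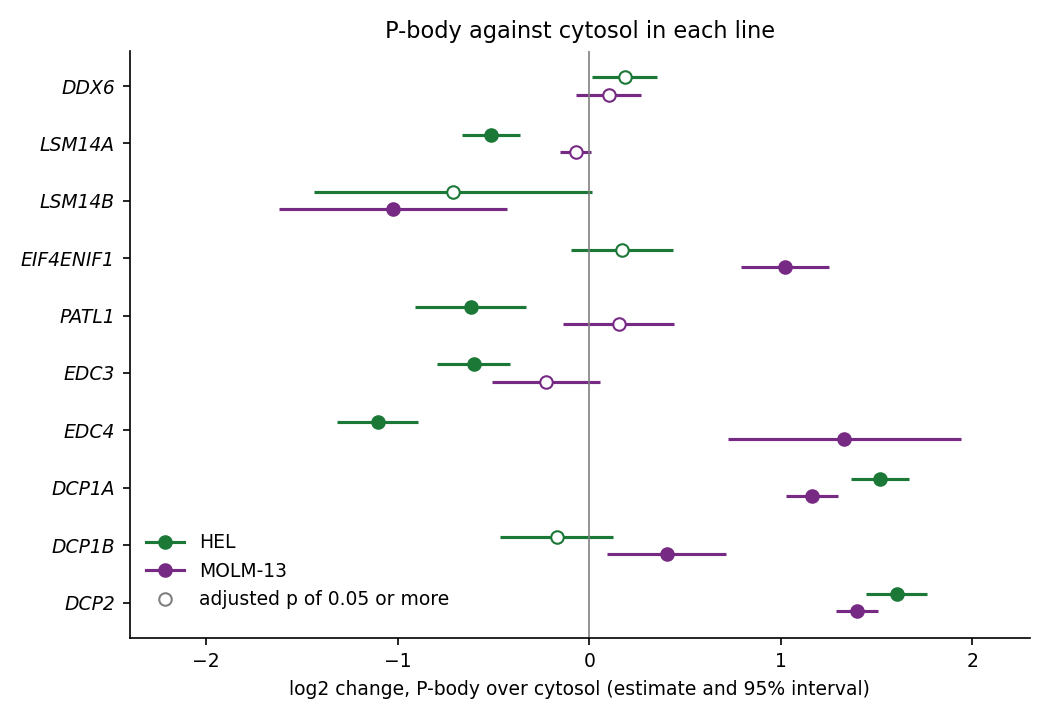
Log2 change between P-body and cytosol for each of the 10 mRNAs in HEL and MOLM-13, with bars for the 95% interval of the fit, filled points for an adjusted p below 0.05 and open points otherwise. DCP1A and DCP2 lie to the right of 1 in both lines, and EDC4 lies at -1.10 in HEL and 1.33 in MOLM-13.

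Whether the distribution of an mRNA differed between the lines was tested directly, as the MOLM-13 change minus the HEL change in a fit of all 8 libraries. That fit has its own TMM factors, so its values are not the differences of the changes given above. In it the median change over all genes was 0 in HEL and -0.17 in MOLM-13. DCP1A was at 1.60 in HEL and 1.05 in MOLM-13, and DCP2 at 1.68 and 1.29. LSM14A, EIF4ENIF1, PATL1 and EDC4 had a higher value in MOLM-13, DCP1A and DCP2 had a lower one, and DDX6, LSM14B, EDC3 and DCP1B did not pass. That is 4 higher and 2 lower of 10, where 9.15% of the 17477 genes tested were higher and 13.0% lower by edgeR's quasi-likelihood test. EDC4 differed by 2.24 ± 0.307 on the log2 scale (adjusted p 1.46e-05, edgeR), a 4.74-fold shift toward P-bodies in MOLM-13, and it was called in all 15 alternatives, with values of 1.74 to 2.66 when each library was left out. EIF4ENIF1 differed by 0.65 ± 0.176 (adjusted p 0.00936, edgeR), and was called in 13 of 15 alternatives, where it was lost without MOLM-13 cytosol replicate 2 (0.0837) and when a trend on GC and length was taken out (0.098, the highest value).

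The other 4 line differences were smaller or less stable. PATL1 differed by 0.58 ± 0.197 (adjusted p 0.0375, edgeR's quasi-likelihood test), called in 7 of 15 alternatives. Its call was lost without HEL P-body replicate 2 and without any 1 of the 4 MOLM-13 libraries. LSM14A differed by 0.25 ± 0.072 (adjusted p 0.0134, edgeR), called in 10 of 15, and was lost without either MOLM-13 P-body library or MOLM-13 cytosol replicate 2. DCP1A differed by -0.55 ± 0.095 (adjusted p 0.000208, edgeR) and DCP2 by -0.40 ± 0.090 (adjusted p 0.00253, edgeR), each called in 12 of 15. The DCP1A and DCP2 calls were lost without HEL P-body replicate 1, without HEL cytosol replicate 1 and without HEL cytosol replicate 2. In those 3 fits the DCP1A difference was -0.19, -0.27 and -0.24 and the DCP2 difference -0.08, -0.17 and -0.04, while the median difference over all genes moved from -0.11 to 0.19, 0.17 and 0.14. In the same order, the LSM14A difference was 0.57, 0.50 and 0.58, that of EIF4ENIF1 1.05, 0.88 and 1.01, and that of PATL1 0.96, 0.86 and 0.89. EDC3 newly passed in the first and second of these fits, at 0.56 and 0.50, and DCP1B in the first and last, at 0.88 and 0.69. Of the genes that did not pass, LSM14B had the widest interval, -1.50 to 0.50, and DDX6 was at -0.27 with an interval of -0.52 to -0.03. DDX6 passed as lower with a filter of 5 CPM, at -0.35, and with the trend on GC and length removed, at -0.37. Without HEL P-body replicate 2 its value was -0.35.

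Levels were then compared between the lines within a fraction, on TMM factors over all 8 libraries. In cytosol, LSM14B was higher in MOLM-13 than in HEL and DDX6, LSM14A, EDC3, EDC4, DCP1A, DCP1B and DCP2 were lower, which is 1 higher and 7 lower of 10, where 44.2% of genes were higher and 40.1% lower. EDC4 was 29.4-fold lower in MOLM-13 cytosol, at a log2 difference of -4.88 ± 0.201 (adjusted p 1.84e-15, edgeR's quasi-likelihood test). EDC3 was 3.77-fold lower, DCP1A 2.72-fold lower, DDX6 2.33-fold lower and DCP2 1.66-fold lower. In P-bodies, LSM14B, EIF4ENIF1 and PATL1 were higher in MOLM-13 and DDX6, EDC3, EDC4, DCP1A and DCP2 were lower, which is 3 and 5 of 10, where 41.0% and 40.8% of genes were. There EDC4 was 6.20-fold lower, DCP1A 3.97-fold lower, EDC3 3.31-fold lower, DDX6 2.81-fold lower and DCP2 2.18-fold lower. The LSM14A call in cytosol was lost with a filter of 5 CPM, at -0.01. In P-bodies the LSM14B and PATL1 calls were lost with DESeq2. That of LSM14B was also lost without MOLM-13 P-body replicate 1, at 0.71, and that of PATL1 without HEL P-body replicate 2 or MOLM-13 P-body replicate 2, at 0.36 in both. DCP1B passed as lower in MOLM-13 P-bodies without HEL P-body replicate 2, at -0.40. In bulk RNA, fewer cells that express a gene and less RNA of it per cell cannot be told apart. The comparisons between lines and the comparisons between fractions use the same libraries.

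Per kilobase of transcript, the order of the 10 levels began with LSM14A in all 4 groups, at a mean of 679 CPM per kilobase in HEL P-bodies, 918 in HEL cytosol, 678 in MOLM-13 P-bodies and 770 in MOLM-13 cytosol. In HEL the order continued with DCP1A (107 CPM per kilobase in P-bodies, 35.5 in cytosol), DCP2 (80.9 and 25.2) and DDX6 (27.2 and 22.7), and ended with EIF4ENIF1, PATL1 and LSM14B in both fractions. The replicate ranges of neighbours in this order overlapped for EDC4 and DCP1B in HEL P-bodies and for EDC3 and EDC4 in HEL cytosol. In MOLM-13, DCP2 (37.0 CPM per kilobase in P-bodies, 15.2 in cytosol) came before DCP1A (27.1 and 13.0). EIF4ENIF1 ranked 4 in MOLM-13 P-bodies, at 11.9 CPM per kilobase, and 6 in MOLM-13 cytosol, at 6.35, where its range overlapped that of DCP1B. EDC4 was last in MOLM-13 cytosol, at 0.692 CPM per kilobase, and LSM14B, at 1.22, was last in MOLM-13 P-bodies, where its range overlapped that of EDC4. In TMM-scaled CPM within a line, the summed level of the 9 genes other than LSM14A was 1705 and 1631 in HEL P-bodies against 862 and 838 in HEL cytosol, and 672 and 690 against 346 and 343 in MOLM-13. DCP1A and DCP2 made up 1365 and 1320 of the sum in HEL P-bodies, 469 and 439 in HEL cytosol, 500.3 and 518 in MOLM-13 P-bodies and 204 and 204 in MOLM-13 cytosol.

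Base composition and transcript length of the 10 were set beside their distribution, since across all genes a smooth trend on GC content and length accounted for 36.4% of the variance of the log2 change in HEL and 41.0% in MOLM-13. DCP2 has the most AU-rich and the longest of the 10 transcripts, with 37.3% GC, 8947 bases and a 3′ untranslated region (UTR) of 7486 bases. DCP1A has 44.1% GC, 5994 bases and a 3′ UTR of 4152 bases. DDX6 has 40.0% GC, 6152 bases and a 3′ UTR of 4339 bases. The genes it and others are set against here, by GC content, are coding genes tested in both lines. The log2 changes of DDX6 were 0.18 in HEL and 0.10 in MOLM-13. In both lines these lay below the middle range (from the 25th to the 75th percentile) of the 1433 genes with 35 to 40% GC. The medians there were 0.87 in HEL and 1.05 in MOLM-13. At 39.99% GC, DDX6 stood at the upper edge of that group. Against the genes with 40 to 45% GC, its HEL value was within the middle range (0.006 to 0.93). Its MOLM-13 value was below that range (0.24 to 1.19). LSM14A, with 40.4% GC and the codon use shown above, lay below the middle range of the 2264 genes with 40 to 45% GC in both lines. The medians of those genes were 0.40 and 0.72. EIF4ENIF1, with 51.7% GC and a 3′ UTR of 513 bases, lay above the middle range in both lines, where the medians of 1568 genes with 50 to 55% GC were -0.28 and -0.14. EDC4, with 59.8% GC, was set against the 1598 genes with 55 to 60% GC. It lay below the middle range in HEL, where the median was -0.45, and above it in MOLM-13, where the median was -0.40. DCP2, against the genes with 35 to 40% GC, lay above the middle range in HEL and within it in MOLM-13. The same held for DCP1A against the genes with 40 to 45% GC. Of the genes with 35 to 40% GC, 78.6% were called higher in HEL and 83.2% in MOLM-13. Of those with 40 to 45% GC, 57.5% were called higher in HEL and 70.3% in MOLM-13. Across the 10 genes, which share libraries and are not replicates, the correlation of log2 change with GC content was -0.66 (Pearson) and -0.79 (Spearman) in HEL and -0.14 and -0.22 in MOLM-13. With transcript length it was 0.73 and 0.48 in HEL and 0.60 and 0.55 in MOLM-13, and with 3′ UTR length 0.79 and 0.64 in HEL and 0.30 and 0.06 in MOLM-13.

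**Figure D3:**
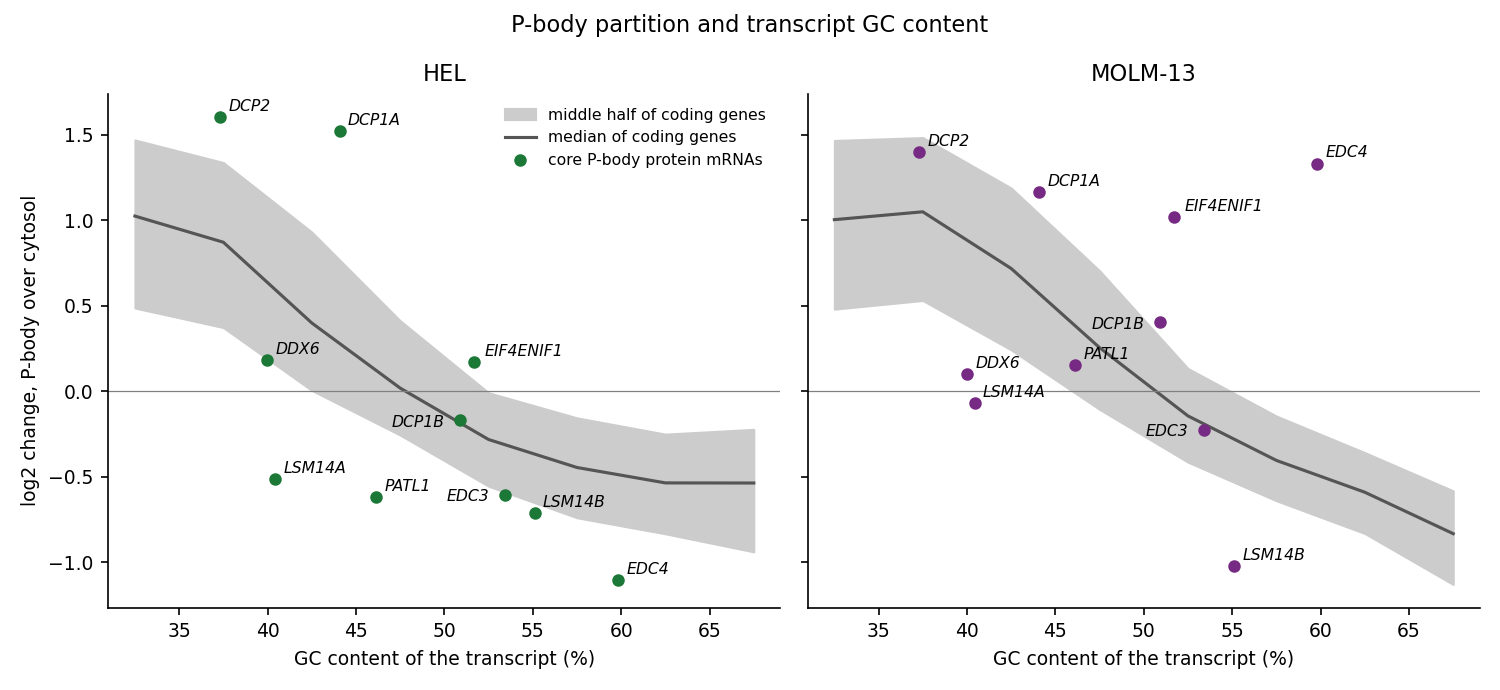
Log2 change between P-body and cytosol against transcript GC content in each line, with the 10 mRNAs as named points. For coding genes tested in both lines, in GC bins of 5 percentage points, the median is a line and the 25th to 75th percentiles are a band. LSM14A lies below the band and EIF4ENIF1 above it in both lines, and EDC4 lies below it in HEL and above it in MOLM-13. DDX6, at the edge of a bin with 39.99% GC, lies at the lower border of the band in HEL and below it in MOLM-13. DCP1A and DCP2 lie above the band in HEL. Against the genes of their own bins in MOLM-13, both were within the middle range.

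When the GC and length trend was taken out of the fit, DCP1A and DCP2 were still higher in P-bodies, at log2 values of 1.19 and 0.72 in HEL and 0.66 and 0.53 in MOLM-13. DDX6 was then lower in P-bodies, at -0.51 in HEL (adjusted p 9.79e-05, edgeR's quasi-likelihood test) and -0.69 in MOLM-13 (adjusted p 1.81e-07, edgeR), against values of the opposite sign without that step. Over the 12 alternatives the adjusted p of DDX6 reached 0.336 in HEL and 0.934 in MOLM-13. LSM14A was lower in both lines, at -1.13 and -0.84. EIF4ENIF1 was higher in both lines, at 0.43 and 1.03, and EDC4 was at -0.57 in HEL and 1.72 in MOLM-13.

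Other genes of the pathway were read from 4 lists with 61 genes in all. In HEL 22 were higher in P-bodies and 10 lower of 56 tested, with a median log2 change of 0.10, and in MOLM-13 23 were higher and 16 lower of 55 tested, with a median of 0.02. Over all genes, as above, 27.5% were higher and 27.1% lower in HEL, and 32.4% and 28.5% in MOLM-13, and the counts of each list are to be read against these shares. Among decapping activators and 5′-3′ decay genes, 4 of 14 were higher and 2 lower in HEL and 3 higher and 5 lower in MOLM-13. XRN1, the exonuclease that degrades decapped mRNA, was at 249 and 248 CPM in HEL P-bodies against 107 and 110 in cytosol, or 2.28-fold higher, and 3.05-fold higher in MOLM-13. LSM1, a subunit of the ring that binds PATL1, was 1.52-fold higher in HEL and 2.31-fold higher in MOLM-13. PNRC1, which binds the decapping enzyme, was 1.84-fold lower in HEL and 1.735-fold lower in MOLM-13. Its relative PNRC2 was 1.40-fold higher in HEL and 1.91-fold higher in MOLM-13.

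In the list of cap-binding and translational repression genes, 6 of 11 tested were higher and 0 lower in HEL, and 6 were higher and 4 lower of 12 in MOLM-13. The CPEB proteins bind a U-rich element in 3′ UTRs. CPEB3, CPEB4 and CPEB2 were 3.80-fold, 3.61-fold and 3.43-fold higher in HEL P-bodies, and CPEB4, CPEB3 and CPEB2 were 2.00-fold, 1.91-fold and 1.29-fold higher in MOLM-13. EIF4E, the cap-binding partner of EIF4ENIF1, was at 160 and 153 CPM in MOLM-13 P-bodies and 38.2 and 41.9 in cytosol, or 3.90-fold higher. In HEL it was 1.97-fold higher.

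Among adaptors that bring mRNAs to decay, 8 of 17 were higher and 3 lower in HEL and 7 higher and 4 lower of 16 in MOLM-13. TNRC6A, the partner of Argonaute in microRNA silencing, and RC3H2, a stem-loop binding repressor, were higher in both lines, by 4.29-fold and 4.09-fold in HEL and by 2.52-fold and 2.57-fold in MOLM-13. UPF1, the helicase of nonsense-mediated decay, was 4.18-fold lower in HEL P-bodies, where its libraries held 22.3 and 40.8 CPM against 107 and 156 in cytosol. In MOLM-13 it was 1.87-fold lower. MEX3D, an RNA-binding protein, was called lower in MOLM-13, at 0.317 and 0.472 CPM against 2.06 and 1.93. It had few counts and passed the filter on low counts only through the cytosolic libraries, so that call carries little weight. In HEL it was not tested. Of the other P-body residents, 4 of 14 were higher and 5 lower in HEL, and 7 were higher and 3 lower of 13 in MOLM-13. STAU2 and the helicase HELZ were higher in both lines, by 2.81-fold and 2.29-fold in HEL and 3.28-fold and 2.50-fold in MOLM-13. AJUBA was 2.47-fold lower in HEL and was not tested in MOLM-13. CNOT1, the scaffold of the deadenylase complex, was 2.22-fold higher in MOLM-13. In HEL its log2 change was -0.06 (adjusted p 0.525, edgeR's quasi-likelihood test). Apart from CNOT1 in HEL, each of these named values passed edgeR's quasi-likelihood test. The highest adjusted p among those that passed was 0.0335, that of CPEB2 in MOLM-13.

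**Figure D4:**
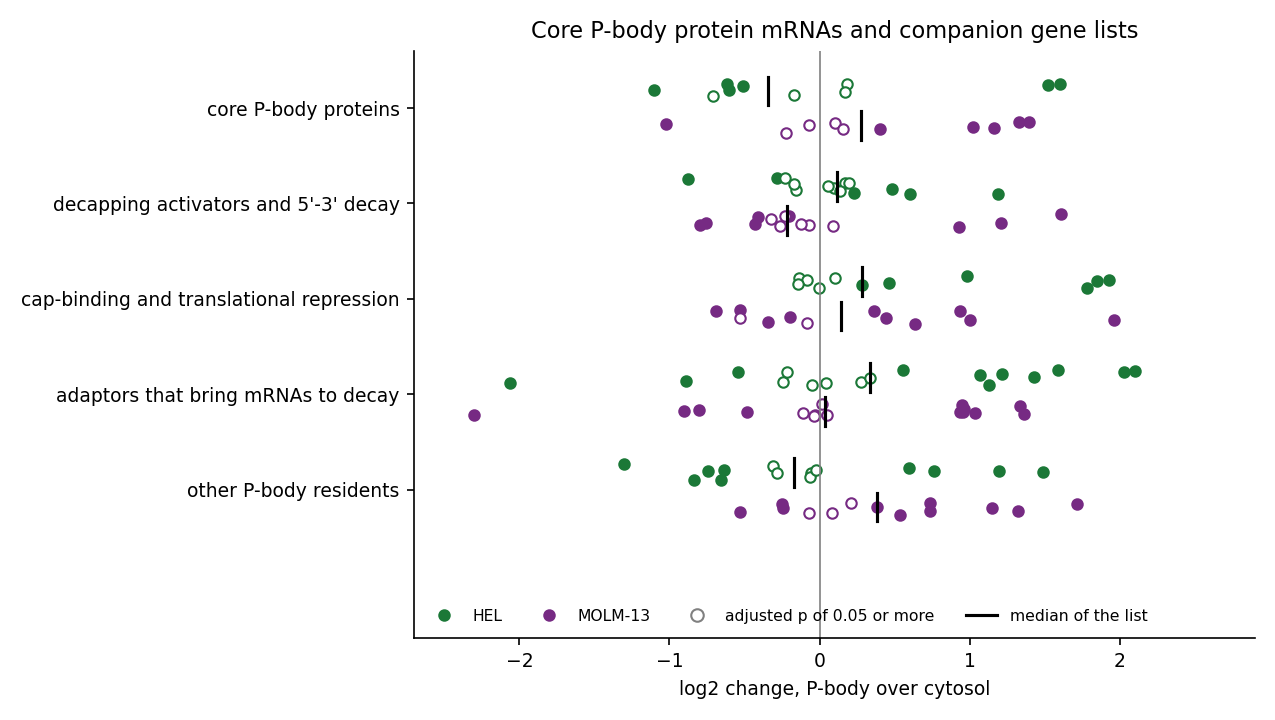
Log2 change between P-body and cytosol of the 10 core genes and of the tested genes of the 4 other lists, with green for HEL, purple for MOLM-13, filled points for an adjusted p below 0.05, open points otherwise and a black line at the median of each list. The 10 core genes spread from -1.10 to 1.60 in HEL and from -1.02 to 1.40 in MOLM-13, and the genes of the other lists from -2.06 to 2.10 and from -2.30 to 1.96. The value of -2.30 is that of MEX3D, which had few counts.

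Genes whose pattern over the 8 libraries was most like that of 3 members were found by the root mean square difference in log2 CPM, each gene centred on its own mean, among 8835 genes. For DDX6 these were POLE2 (0.0589), MAPKAP1 (0.0727) and GDE1 (0.0802), against a median difference of 0.792. For DCP2 they were ANO6 (0.0567), C12orf4 (0.0683) and HSDL2 (0.0893), against a median of 1.01. For EDC4 the nearest genes were farther away, namely ATG9A (0.296), CBS (0.303) and PFKM (0.318), against a median of 1.84. Like EDC4, these 3 had a negative log2 change in HEL (-1.17, -1.03 and -0.39) and a positive one in MOLM-13 (1.14, 1.18 and 1.48), which the measure of likeness used.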

How the data were processed

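RNA was extracted from P-body and cytosolic fractions of HEL and MOLM-13 and sequenced. The authors deposited 1 table per line, which holds whole-number read counts for each gene symbol. Per the submitters' processing notes, STAR, SAMtools 1.12, DESeq2 and the build GRCh38 were used. The sources used here give no read counter, annotation release or strand setting, so reads of overlapping genes on either strand cannot be told apart.

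A set of 112 symbols that stood on several rows (0.0193% to 0.0477% of counts) was left out, and 60196 symbols remained. Each line was fitted alone by the quasi-likelihood test of edgeR 4.0.16 (R 4.3.3), with TMM factors after filterByExpr (smallest count 10), with Benjamini-Hochberg adjustment over all genes tested. Contrasts between lines came from a fit of all 8 libraries. Standard errors are the log2 change divided by the square root of the F statistic, and 95% intervals use the t distribution with the fit's degrees of freedom. An exact permutation test of 2 against 2 cannot go below p = 0.333. Transcript properties came from the GENCODE 29 transcript with the longest coding sequence, and 55858 symbols matched. A smooth trend of the log2 change on both properties was fitted with mgcv 1.9.3 and, as an alternative, removed. Alternatives were DESeq2 1.42.0, other scalings and filters, a replicate block and leaving out each library.

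The 10 genes, named by role, and the 4 lists were chosen with earlier results of these data known. Named genes were all 10 members, up to 3 called genes with the greatest absolute log2 change per list and line, and the 3 nearest genes to DDX6, EDC4 and DCP2 among those with a mean of at least 10 CPM.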

Additional observations from a re-analysis of the deposited data

Results flagged for a closer look

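For 6 of the 10 mRNAs the distribution between P-bodies and cytosol differed between the lines by edgeR's quasi-likelihood test of the difference itself, with 4 higher and 2 lower, where 9.15% of all genes tested were higher and 13.0% lower. On the log2 scale, MOLM-13 minus HEL, the values were 2.24 for EDC4, 0.65 for EIF4ENIF1, 0.58 for PATL1, 0.25 for LSM14A, -0.55 for DCP1A and -0.40 for DCP2. EDC4 was called in all 15 alternatives, EIF4ENIF1 in 13, DCP1A and DCP2 in 12 each, LSM14A in 10 and PATL1 in 7. EDC4 was the member whose change was called with opposite signs in the 2 lines. The DCP1A and DCP2 values are smaller than the changes themselves, which were positive in both lines. Groups of 2 libraries were not examined for single outlying samples.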

How the results depend on the processing

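Within HEL 108 of 119 values of members under an alternative kept their direction and their side of the threshold, 6 newly passed it and 5 changed sign. Within MOLM-13 98 of 119 kept both, 7 were lost, 8 newly passed and 6 changed sign. For the line difference 119 of 150 kept both, 21 were lost, 7 newly passed and 3 changed sign. The labels do not say whether libraries with the same replicate number were paired. Over genes, the deviations of same-numbered libraries had a correlation of -0.07 in HEL and -0.01 in MOLM-13. With so few libraries, such low values cannot show that they were unpaired. The replicate block changed no member's call within a line, with 2 higher and 4 lower in HEL and 5 and 1 in MOLM-13.

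The count of members lower in MOLM-13 P-bodies, 1 in the report, was 0 with DESeq2, 3 with a filter of 5 CPM in 2 libraries, 3 in the fit of all 8 libraries, 4 with library totals and 3 once the trend on composition and length was removed. At 5 CPM the count higher in MOLM-13 was 3 of 9 tested, as EDC4 did not pass that filter. With the trend removed, the count with a higher value in MOLM-13 than in HEL was 1, and the count higher in MOLM-13 cytosol was 4 (2 at 5 CPM). DESeq2 called 1 member higher in MOLM-13 P-bodies than in HEL P-bodies. Leaving out each library gave 1 to 6 members with a higher and 0 to 3 with a lower line difference, and 2 to 4 higher in MOLM-13 P-bodies than in HEL P-bodies. Over all genes, DESeq2 called 3647 higher and 2593 lower in HEL and 3754 and 2082 in MOLM-13, against 4007 and 4017 lower in the edgeR fits.

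Signs changed for these log2 values. In HEL, DDX6 was -0.14 with library totals and -0.51 with the trend removed, EIF4ENIF1 was -0.15 with library totals, and DCP1B was 0.012 with the trend removed and -0.353 to 0.0810 when each library was left out. In MOLM-13, DDX6 was -0.012 in the fit of all 8 libraries, -0.33 with library totals and -0.69 with the trend removed, PATL1 was -0.28 and -0.21 in those last 2 settings, and DCP1B was -0.031 with library totals. In the line difference, EDC3 was -0.038 with the trend removed and DDX6 ran from -0.35 to 0.11 when each library was left out. Between the cytosols, EIF4ENIF1 was -0.014 with DESeq2, -0.17 with no filter and -0.0900 to 0.23 when each library was left out, PATL1 was 0.11 at 5 CPM and 0.42 with the trend removed, and LSM14A was 0.37 with the trend removed. Between the P-bodies, LSM14A was 0.00014 with RLE size factors, 0.17 at 5 CPM, 0.013 with library totals, 0.46 with the trend removed and -0.039 to 0.18 when each library was left out, and DCP1B ran from -0.40 to 0.16. The cause of these changes was not tested. Low counts limit LSM14B in both lines, EDC4 in MOLM-13 and, among the listed genes, MEX3D in MOLM-13.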
